A study of Homo sapiens with 4 samples.

Results

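The genes followed here encode 9 receptor tyrosine kinases of neuroblastoma, ALK, RET, NTRK2, NTRK3, IGF1R, ERBB2, ERBB3, ERBB4 and FGFR1. They were chosen by name from the 57820 genes counted in each library. Each name was tied to 1 gene identifier, and all 9 were found. The cells were SY5Y, an established human line from a neuroblastoma without amplified MYCN (wild type for MYCN, per the study). They were exposed to SGSS05-NS or to the solvent DMSO for 12 h before their RNA was sequenced. There were 2 libraries per condition and 4 in all, which the methods describe as independent biological replicates of this single line. The labels name the compound SGSS05-NS and give 3 μM. The methods instead name SGSS05-NS3, a covalent inhibitor of the histone and p53 methyltransferase SETD8. They give a lower dose for this line and 3 μM for another line, NGP. The study also lists other methyltransferases that SGSS05-NS3 inhibits, less strongly than SETD8. Its discussion names SGSS05-NS as well, as a SETD8 inhibitor of the same naphthoquinone series. The compounds of that series are said to inhibit several other methyltransferases too, at low micromolar concentrations. Which of these compounds the cells received is not settled by the labels and methods together. The study's legend for the expression data of this line gives 3 μM, as the labels do, and the dose is taken here as labelled. No untreated cells and no inactive compound were among the libraries analysed here.

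A receptor tyrosine kinase binds a ligand outside the cell, pairs with another receptor and phosphorylates itself and its partners on tyrosine. Docking proteins then gather on the phosphorylated tail and pass the signal to the RAS-ERK and PI3K-AKT cascades. ALK is the receptor most often activated by mutation in neuroblastoma. RET answers to ligands of the GDNF family through GFRA co-receptors, and the TRK receptors NTRK2 (TrkB) and NTRK3 (TrkC) answer to the neurotrophins BDNF and NT-3, which guide the survival and differentiation of sympathetic and sensory neurons.

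The receptor genes differ widely in the length of genome they span, from 26.7 kb for ERBB3 to 1160 kb for ERBB4, while the exons merged over all transcripts sum to between 7.38 kb for ALK and 33.2 kb for NTRK2. Exons made up 1.01% of the span of ALK and 1.12% of that of ERBB4, against 25.1% for FGFR1 and 43.8% for ERBB3. On GRCh37, ALK (ENSG00000171094.11) lies at chr2:29415640-30144452 on the minus strand and ERBB4 (ENSG00000178568.9) at chr2:212240442-213403565 on the minus strand. IGF1R (ENSG00000140443.9) lies at chr15:99191768-99507759 on the plus strand and NTRK3 (ENSG00000140538.12) at chr15:88402982-88800022 on the minus strand. RET (ENSG00000165731.13) lies at chr10:43572512-43625799, NTRK2 (ENSG00000148053.11) at chr9:87283290-87710666, ERBB2 (ENSG00000141736.9) at chr17:37844167-37886679 and ERBB3 (ENSG00000065361.10) at chr12:56470583-56497289, all on the plus strand.

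ALK, ERBB4 and IGF1R fell with the compound, and ERBB2, which is expressed, did not pass the test. The sequences shown are the 250 bases before the first listed RefSeq start of each of these genes. They are from GRCh38.p14, read 5′ to 3′ on the strand of the gene, and capitals mark the GC box (GGGCGG on either strand, so also CCGCCC), the site that SP1-type factors bind. The windows are chr2:29921587-29921836 on the minus strand for ALK, chr2:212538803-212539052 on the minus strand for ERBB4, chr15:98648289-98648538 on the plus strand for IGF1R and chr17:39687844-39688093 on the plus strand for ERBB2.
ALK: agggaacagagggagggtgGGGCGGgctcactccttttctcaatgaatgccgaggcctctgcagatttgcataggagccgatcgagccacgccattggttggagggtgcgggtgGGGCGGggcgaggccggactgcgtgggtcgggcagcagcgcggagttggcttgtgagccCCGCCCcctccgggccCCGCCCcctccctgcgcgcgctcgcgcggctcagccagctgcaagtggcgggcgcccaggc
ERBB4: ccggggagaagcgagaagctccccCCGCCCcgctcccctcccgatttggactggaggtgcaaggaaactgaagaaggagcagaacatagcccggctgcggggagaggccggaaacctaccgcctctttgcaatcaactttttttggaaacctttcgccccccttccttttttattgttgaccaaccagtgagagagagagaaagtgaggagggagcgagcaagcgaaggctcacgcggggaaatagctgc
IGF1R: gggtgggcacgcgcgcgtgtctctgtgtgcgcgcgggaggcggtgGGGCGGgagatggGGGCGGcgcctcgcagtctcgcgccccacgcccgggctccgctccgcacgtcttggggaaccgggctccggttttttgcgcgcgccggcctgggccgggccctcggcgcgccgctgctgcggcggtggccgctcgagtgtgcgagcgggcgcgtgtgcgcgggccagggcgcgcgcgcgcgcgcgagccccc
ERBB2: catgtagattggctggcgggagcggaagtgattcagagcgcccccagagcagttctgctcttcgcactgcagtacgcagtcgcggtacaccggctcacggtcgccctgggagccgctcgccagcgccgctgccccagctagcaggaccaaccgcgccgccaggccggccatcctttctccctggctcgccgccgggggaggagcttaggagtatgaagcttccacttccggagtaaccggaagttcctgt

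The ALK window held 4 GC boxes, that of IGF1R 2, that of ERBB4 1 and that of ERBB2 0. Any other starts of these genes were not searched. PGAP3, on the strand opposite to ERBB2, overlaps exons of ERBB2. The ERBB2 window may therefore hold bases of PGAP3 and may not lie at the main ERBB2 start. Windows of 7 of the 9 genes were searched, without ERBB3 and FGFR1. Among the other receptor genes searched, RET held 5, NTRK3 2 and NTRK2 1, and 42.6% of all 35116 promoter windows held at least 1. G and C made up 71.6% of the window of ALK, 81.2% for IGF1R, 57.2% for ERBB4 and 65.6% for ERBB2, against a median of 58.0% over all windows (quartiles 46.4% and 68.0%). ALK and IGF1R lay above the upper quartile, whereas ERBB2 and ERBB4 lay between the quartiles. Neither the E-box (CACGTG), the CRE (TGACGTCA), the AP-1 site (TGACTCA) nor the heat shock element was found in the windows of the 7 receptor genes searched. These letters occur in 6.34%, 1.65%, 4.2% and 0.441% of all windows. GC boxes were thus present both in genes that fell and in genes that did not pass the test.

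In the DMSO libraries the 9 genes covered a wide range of levels. CPM values are TMM-scaled fragments on genes, set to a common library size, and only CPM divided by kb of merged exons is used to set 1 gene against another. Per kb, ALK was highest with DMSO, with a mean of 22.1 against 0.0105 for ERBB3, the lowest. It stood at 22.3 and 21.9 in the 2 libraries, followed by RET at 10.9 and 7.74, IGF1R at 5.20 and 6.09 and FGFR1 at 3.34 and 3.33. ERBB2 followed at 0.796 and 0.705, ERBB4 at 0.3002 and 0.411, NTRK3 at 0.137 and 0.190, NTRK2 at 0.0192 and 0.0284 and ERBB3 at 0.0136 and 0.00731. No 2 neighbours in this order overlapped between libraries. The level of ERBB3 may be too low. ENSG00000257411, on the same strand, overlaps its exons and had 0 fragments in each library. Fragments that fit 2 genes of a strand are ambiguous and were left out. The length counts every annotated exon, so a gene that uses a short transcript has a higher level per kb than is given here. Lengths are those of GENCODE 44, whereas fragments were counted on GENCODE 19. Exons present only in the later release add length without counts, to an extent not measured here, so the order per kb is approximate.

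With SGSS05-NS the order at the top was lost. ALK had 5.07 and 6.91 CPM per kb and RET 6.79 and 5.91, so their libraries overlapped, and FGFR1 at 4.08 and 3.99 stood above IGF1R at 2.95 and 2.63. Lower down, ERBB4 at 0.0589 and 0.0817 overlapped NTRK3 at 0.0370 and 0.110, which in turn overlapped ERBB3 at 0.0462 and 0.0254. The summed level of the 9 genes was 43.0 and 40.4 CPM per kb with DMSO and 19.8 and 20.5 with SGSS05-NS. ALK made up 51.8% and 54.2% of this sum with DMSO and 25.6% and 33.8% with the compound, and the share of FGFR1 went from 7.77% and 8.25% to 20.6% and 19.5%. In bulk RNA, fewer cells of a kind and less RNA per cell cannot be told apart.

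**Figure D1:**
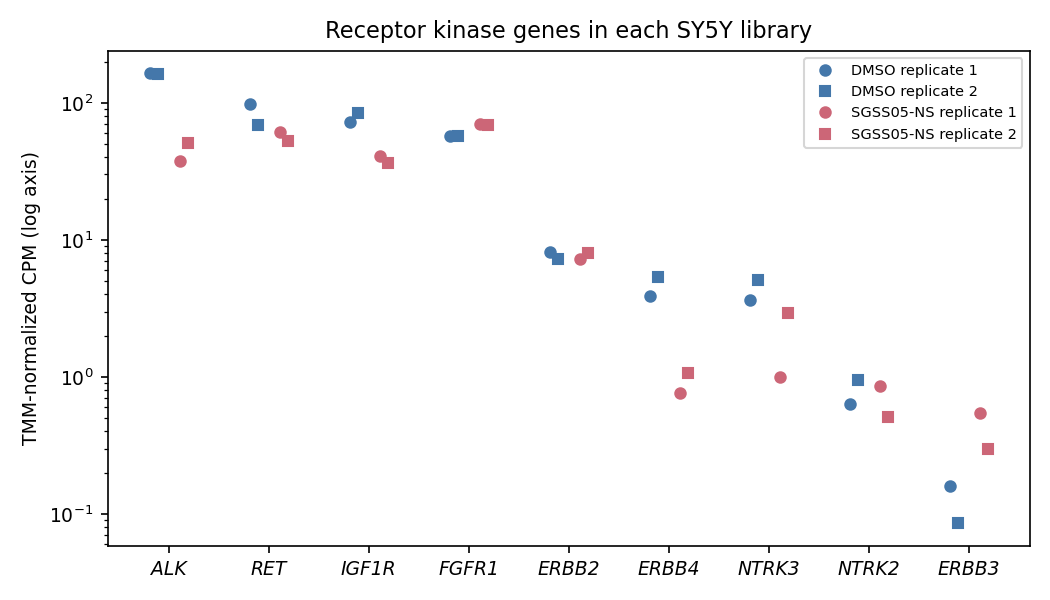
TMM-normalized CPM (log axis) of the 9 receptor genes in each of the 4 SY5Y libraries, with circles for replicate 1 and squares for replicate 2, DMSO in blue and SGSS05-NS in red. ALK and ERBB4 show the widest gap between conditions, with all SGSS05-NS points below the DMSO points, whereas FGFR1 lies slightly higher with SGSS05-NS, at 70.2 and 68.6 CPM against 57.4 and 57.3.

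Of the 9 genes, 8 had enough counts for edgeR's quasi-likelihood test, and 3 of them, ALK, IGF1R and ERBB4, fell at an adjusted p-value under 0.001, the threshold of the study. Over all 16468 genes tested, 8.14% were lower and 6.37% were higher at this threshold. None of the 8 was called higher (0 of 8 by edgeR, DESeq2 and limma voom, and 1 of 8, FGFR1, at an unadjusted p under 0.05). At an adjusted p under 0.05, 5 were lower and 1 was higher, where 23.7% of all genes tested were lower and 22.6% higher. Both SGSS05-NS libraries lay below both DMSO libraries for 5 of the 8 genes and above them for 1, against 36.9% and 37.8% of all genes tested. The median log2 fold change of the 8 was -0.78, and that of all genes tested was 0.012.

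ALK, the receptor for the ligands ALKAL1 and ALKAL2, had 4124 and 3771 fragments with DMSO and 831 and 1200 with SGSS05-NS. In TMM-normalized CPM these were 164 and 161 with DMSO and 37.4 and 51.0 with the compound. Both treated libraries lay far below both controls, and the treated libraries differed from each other more than the controls did. Its mean level was 163 ± 2.09 CPM with DMSO and fell to 44.2 ± 9.60 CPM (SD, n = 2 libraries each), which is 27.2% of the DMSO level. The log2 fold change was -1.88 (standard error, SE, 0.13, 95% interval -2.16 to -1.60, adjusted p = 7.6e-07, edgeR). ALK kept this call under each of the 13 other settings run.

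RET had 2453 and 1622 fragments with DMSO and 1353 and 1248 with SGSS05-NS, or 97.8 and 69.4 CPM against 61.0 and 53.1 CPM. The groups did not overlap, but the DMSO libraries lay farther apart (SD 20.0 CPM, n = 2) than the lower of them lay from the treated libraries. The log2 fold change of -0.55 (SE 0.14, 95% interval -0.86 to -0.25, adjusted p = 0.0074, edgeR) did not pass the threshold of 0.001. The value moved with single libraries. It was -0.29 (adjusted p = 0.098, edgeR) without DMSO replicate 1 and -0.80 (adjusted p = 2.1e-07, edgeR) without DMSO replicate 2, and it also passed the threshold without SGSS05-NS replicate 1, at -0.66 (adjusted p = 9.5e-04, edgeR). With all 4 libraries it passed when genes with low counts were kept (-0.58, adjusted p = 1.4e-06, edgeR).

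The TRK receptors were rare in these cells. NTRK3 had 92 and 119 fragments with DMSO and 22 and 69 with SGSS05-NS, or 3.67 and 5.09 CPM against 0.991 and 2.93 CPM. Its groups did not overlap, yet the treated libraries lay farther from each other than the higher of them lay from the lower control. The log2 fold change was -1.14 (SE 0.36, 95% interval -1.92 to -0.36, adjusted p = 0.021, edgeR) and did not pass the threshold. Leaving out SGSS05-NS replicate 1 gave -0.58 (adjusted p = 0.090, edgeR) and leaving out SGSS05-NS replicate 2 gave -2.13 (adjusted p = 8e-05, edgeR), and without DMSO replicate 1 it was -1.37 (adjusted p = 2e-05, edgeR). With all 4 libraries it passed when genes with low counts were kept (-1.17, adjusted p = 2.6e-06, edgeR).

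NTRK2 had 16 and 22 fragments with DMSO and 19 and 12 with SGSS05-NS, or 0.638 and 0.942 CPM against 0.856 and 0.510 CPM. The groups overlapped. Its log2 fold change was -0.21 with a 95% interval from -1.05 to 0.63 (adjusted p = 0.69, edgeR), and this wide interval leaves its direction unknown at this depth.

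IGF1R, the receptor for the insulin-like growth factors, had 1820 and 1983 fragments with DMSO and 914 and 863 with SGSS05-NS. The levels were 72.5 and 84.9 CPM with DMSO and 41.2 and 36.7 CPM with the compound, with no overlap between the groups. Its mean level was 78.7 ± 8.73 CPM with DMSO and fell to 38.9 ± 3.17 CPM (SD, n = 2 each), or 49.5% of the DMSO level. Its log2 fold change was -1.01 (SE 0.11, 95% interval -1.25 to -0.78, adjusted p = 2.1e-05, edgeR), and the call held under the 13 other settings.

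The ERBB family splits by level and by change. ERBB4, the neuregulin receptor of the nervous system and heart, had 98 and 125 fragments with DMSO and 17 and 25 with SGSS05-NS. The levels were 3.91 and 5.35 CPM with DMSO and 0.766 and 1.06 CPM with the compound, and both treated libraries lay far below both controls. The mean level was 4.63 ± 1.02 CPM with DMSO and fell to 0.914 ± 0.210 CPM (SD, n = 2 each), or 20.0% of the DMSO level. This was the lowest log2 fold change among the 8 receptor genes tested, -2.32 (SE 0.28, 95% interval -2.94 to -1.71, adjusted p = 5e-05, edgeR), and the call held under the 13 other settings.

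ERBB2, the family member that needs no ligand of its own, had 206 and 170 fragments with DMSO and 162 and 188 with SGSS05-NS. The levels of 8.21 and 7.28 CPM with DMSO overlapped those of 7.30 and 7.99 CPM with the compound. The log2 fold change was -0.019 with a 95% interval from -0.37 to 0.33 (adjusted p = 0.94, edgeR). ERBB3, whose kinase domain is weak and which signals through its partners, had 4 and 2 fragments with DMSO and 12 and 7 with SGSS05-NS and was not tested. Its scaled counts had a ratio of 3.35 with an exact binomial 95% interval from 1.29 to 10.3, which covers counting error only and is not a comparison over replicates.

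FGFR1 (ENSG00000077782.15), a receptor for fibroblast growth factors, lies on the minus strand of chromosome 8 from 38257733 to 38326352 (GRCh37). It was the only receptor gene of the 8 tested whose treated libraries both lay above the controls. It had 1440 and 1338 fragments with DMSO and 1559 and 1613 with SGSS05-NS, or 57.4 and 57.3 CPM against 70.2 and 68.6 CPM. The replicates lay close together, with means of 57.3 ± 0.0860 CPM and 69.4 ± 1.18 CPM (SD, n = 2 each). Its log2 fold change of 0.28 (SE 0.091, 95% interval 0.078 to 0.47, adjusted p = 0.026, edgeR) did not pass the threshold.

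**Figure D2:**
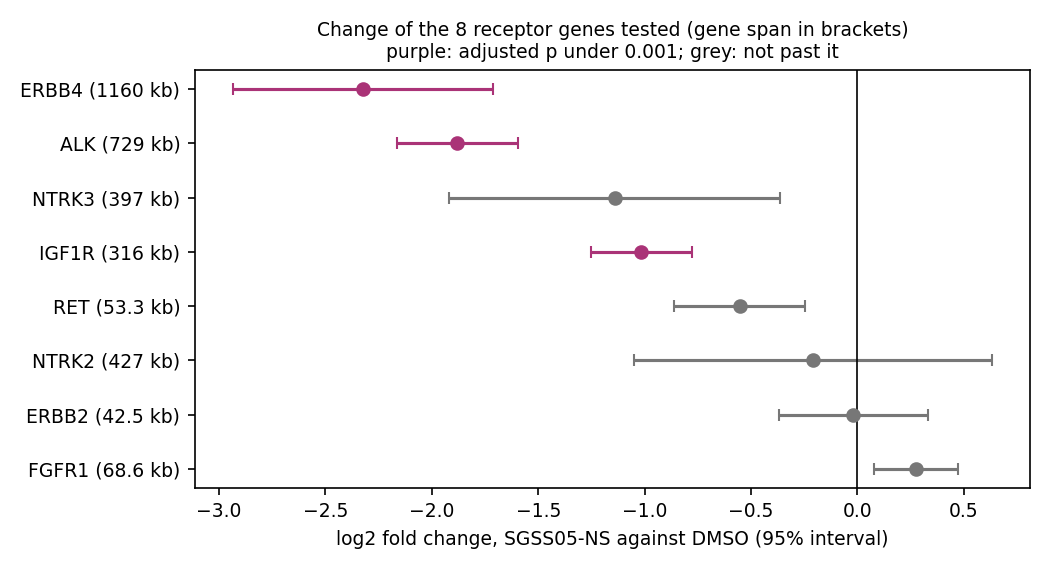
Log2 fold change of SGSS05-NS against DMSO with its 95% interval for the 8 receptor genes tested, with the genomic span of each in brackets. ERBB4, ALK and IGF1R (purple) passed an adjusted p of 0.001, and NTRK2 and ERBB2 have intervals that include 0.

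Library totals and cell markers were measured beside these values. Between 21463105 and 25350204 fragments fell on genes per library. Of all fragments, 12.4% and 12.3% with DMSO and 16.1% and 15.3% with SGSS05-NS met no annotated exon on the strand counted. This share includes fragments on exons of the opposite strand. Markers of neuroblastoma and sympathetic neurons were abundant in every library, as the label of the line says, although TH was near 0. The summed level of this list was 5780 and 6140 CPM with DMSO and 3560 and 3450 CPM with SGSS05-NS. Of its 18 genes tested, 11 were lower at an adjusted p under 0.001 (edgeR), against 8.14% of all genes tested. Markers of mesenchymal cells summed to 139 and 141 CPM with DMSO and 145 and 128 CPM with SGSS05-NS, with PRRX1, TWIST2, DCN, POSTN and PDPN at 0. Among them ACTA2, smooth muscle actin, rose from 2.39 and 1.41 CPM to 19.8 and 9.61 CPM (adjusted p = 3.4e-05, edgeR), and PDGFRB fell by 0.60 on the log2 scale (adjusted p = 6.9e-04, edgeR). Markers of the Schwann lineage, which include ERBB3, summed to 2.23 and 1.84 CPM with DMSO and 3.78 and 3.74 CPM with SGSS05-NS, with SOX10, CDH19, MPZL2 and PMP2 at 0. EGR2, a transcription factor of that list, rose from 2 and 1 fragments to 24 and 45 (adjusted p = 7.8e-05, edgeR). Epithelial markers summed to 2.43 and 2.87 CPM with DMSO and 3.47 and 4.42 CPM with SGSS05-NS, with KRT5, KRT14 and CLDN4 at 0, and blood and endothelial markers to at most 0.586 CPM with CD3E and HBB at 0. The part of the share that met no exon and of these markers in the fall of ALK, IGF1R and ERBB4 was not tested.

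The receptor genes that fell are long. The 5 tested genes that span at least 300 kb (ERBB4, ALK, NTRK2, NTRK3 and IGF1R) included all 3 that fell. In the main edgeR fit, by DESeq2 and by limma voom, 0 of the 3 shorter ones (FGFR1, RET and ERBB2) passed the threshold. RET, at 53.3 kb, did pass in some other settings. With all 4 libraries and genes with low counts kept, it was lower at -0.58 (adjusted p = 1.4e-06, edgeR). Across all genes tested, the longest class was the lowest too. Among the 621 genes of 300 kb and over, the median log2 fold change was -1.03 (quartiles -1.47 and -0.56) and 53.8% were lower at an adjusted p under 0.001. In the class of 100 to 300 kb the median was -0.33 and 20.5% were lower, and in that of 30 to 100 kb it was 0.015 and 3.78% were lower. Between 10 and 30 kb the median was 0.17 and 1.69% were lower, and under 10 kb it was 0.096 and 5.86% were lower.

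Read against genes of the same span class, the receptor genes took different places. IGF1R and NTRK3 lay at the middle of the longest class, with 50.7% and 42.7% of its genes lower than they were. ALK lay 0.85 below the class median on the log2 scale, with 9.82% of the class lower still, and ERBB4 1.29 below it, with 2.58% lower still. Those 2 are also the longest of the 9, at 729 and 1160 kb within a class that has no upper limit. NTRK2, at 427 kb, lay 0.825 above the class median, with 86.0% of the class below it, on few fragments. In the class of 30 to 100 kb, RET lay 0.57 below the median with 7.01% of the class lower, ERBB2 lay close to it with 45.9% lower, and FGFR1 lay 0.26 above it with 71.9% lower.

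Spearman's rho between span and log2 fold change was -0.76 over the 8 receptor genes tested and -0.77 over the 31 other receptor tyrosine kinases tested, as a description over genes that share the same 4 libraries. Over all 16042 genes with a span it was -0.22, and the median log2 fold change was lower in genes under 10 kb (0.096) than in genes of 10 to 30 kb (0.17). With the length of merged exons in place of the span, rho was 0.29 over the 8 genes, -0.63 over the other receptor kinases and -0.089 over all genes.

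**Figure D3:**
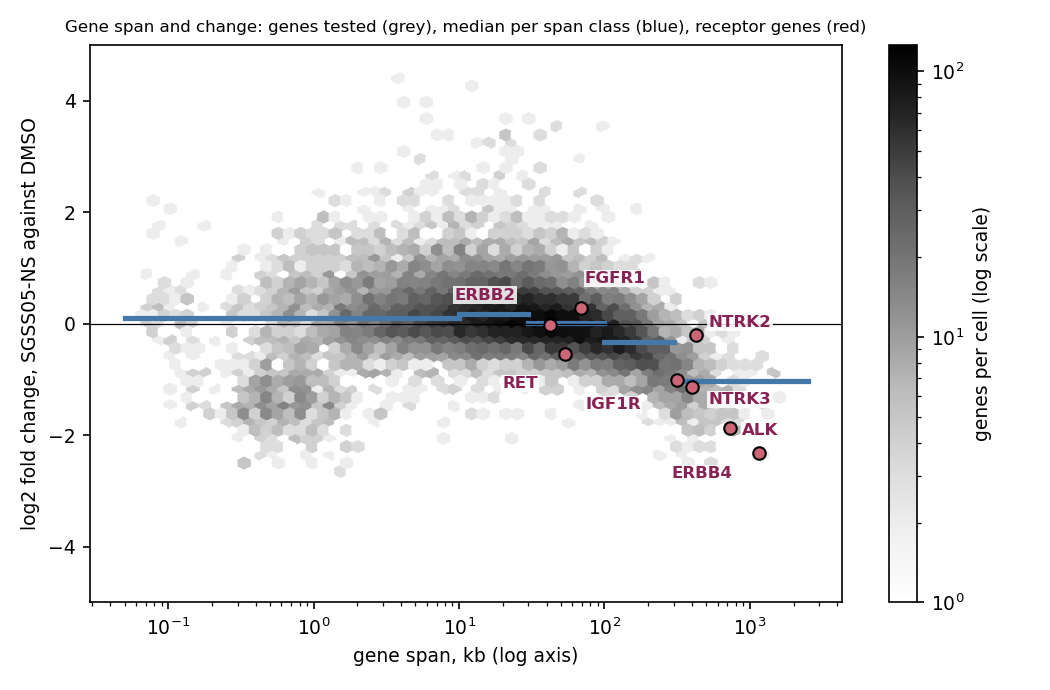
Log2 fold change of SGSS05-NS against DMSO by genomic span in kb (log axis), with the number of genes per hexagon in grey, the median of each span class as a blue line and the 8 receptor genes tested as red points. The medians go from 0.17 between 10 and 30 kb to -1.03 at 300 kb and over, ALK and ERBB4 lie below the last line and NTRK2 above it. 30 of the 16042 genes lie beyond the axis limits of -5 and 5.

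The other receptor tyrosine kinases were called in both directions. Of 49 listed, 31 were tested, 8 were lower and 3 were higher, where 8.14% of all genes tested were lower and 6.37% higher. The list's median log2 fold change was 0.0073. ROR1 (407 kb) and ROR2 (387 kb), receptors for WNT5A, fell from 39.5 ± 1.49 to 8.05 ± 1.25 CPM and from 36.2 ± 3.05 to 14.4 ± 0.0957 CPM (SD, n = 2 each), with log2 fold changes of -2.29 (SE 0.13, adjusted p = 2.3e-07, edgeR) and -1.33 (SE 0.12, adjusted p = 4.9e-06, edgeR). The higher ones with the smallest p-values were EPHA2 (31.7 kb), an ephrin receptor, with a log2 fold change of 1.69 (SE 0.12, adjusted p = 1.3e-06, edgeR), and FGFR3 (15.6 kb), with 2.97 (SE 0.28, adjusted p = 7.9e-06, edgeR). EPHA2 rose from 24.6 and 19.3 CPM to 74.7 and 66.7 CPM, and FGFR3 from 0.558 and 0.471 CPM to 3.97 and 4.17 CPM. By span, 0 of the 10 tested kinases of 10 to 30 kb, 2 of 10 of 30 to 100 kb, 4 of 8 of 100 to 300 kb and 2 of 3 of 300 kb and over were lower. Over all genes tested in these classes, in the same order, 1.69%, 3.78%, 20.5% and 53.8% were lower.

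The pattern over the 4 libraries most like the mean of the 8 receptor genes was that of RYK, a WNT co-receptor, KIT, the receptor for stem cell factor, and EPHB2, an ephrin receptor. Likeness was the Euclidean distance between centred log2(CPM + 0.5) profiles, which was 0.187, 0.208 and 0.210. RYK fell by 0.67 and EPHB2 by 0.98 on the log2 scale (adjusted p = 1.2e-04 and 8.8e-06, edgeR), and KIT, at -0.91 (adjusted p = 0.0027, edgeR), did not pass the threshold. KIT passed it under 4 of the 13 alternative settings, among them the likelihood ratio test (adjusted p = 5.3e-05, edgeR) and the fit without DMSO replicate 1 (-1.07, adjusted p = 9.8e-05, edgeR). With 4 libraries, a profile is close to the difference between the conditions alone.

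Of 41 ligand genes of these receptors, 16 were tested, 3 were higher and 1 was lower, with a median log2 fold change of 0.12. Over all genes tested, 6.37% were higher and 8.14% lower. GDF15, which signals through RET with the co-receptor GFRAL, rose from 1.24 and 0.899 CPM to 164 and 114 CPM (log2 fold change 7.01, SE 0.22, adjusted p = 2.2e-09, edgeR). HBEGF, which binds ERBB4 as well as the EGF receptor, rose from 3.19 and 3.85 CPM to 18.0 and 23.2 CPM (log2 fold change 2.55, SE 0.18, adjusted p = 8e-07, edgeR). PSPN, a ligand of the GDNF family that reaches RET through GFRA4, was the other higher gene, with a log2 fold change of 1.28 (SE 0.18, adjusted p = 1.3e-04, edgeR). GFRAL and GFRA4, the co-receptors of GDF15 and PSPN, had 0 fragments in all 4 libraries and were not detectable at this depth. FGF7, whose usual receptor is a form of FGFR2 and not FGFR1, fell from 5.66 and 6.16 CPM to 1.04 and 1.27 CPM (log2 fold change -2.35, SE 0.23, adjusted p = 1.1e-05, edgeR).

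Several ligands of known pairing did not pass the threshold. PTN, a heparin-binding factor linked to ALK, had 13.8 and 13.2 CPM with DMSO and 8.29 and 8.50 CPM with SGSS05-NS (adjusted p = 0.0019, edgeR), and it passed under 4 of the 13 alternative settings, among them the likelihood ratio test (adjusted p = 3.1e-05, edgeR) and the fit without DMSO replicate 2 (-0.74, adjusted p = 9.1e-04, edgeR). MDK, a related factor, had 392 and 355 CPM with DMSO and 294 and 297 CPM with the compound (adjusted p = 0.012, edgeR). IGF2, a ligand of IGF1R, had 25.5 and 23.4 CPM with DMSO and 40.8 and 17.6 CPM with SGSS05-NS, so its groups overlapped (log2 fold change 0.25, adjusted p = 0.46, edgeR), and without SGSS05-NS replicate 2 it was called higher at 0.74 (adjusted p = 1.3e-04, edgeR). BDNF, the ligand of NTRK2, had between 14 and 25 fragments per library. The ERBB4 ligand NRG3, which spans 1110 kb, had between 14 and 28 fragments per library and a log2 fold change of -0.020 (adjusted p = 0.97, edgeR).

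Co-receptors and binding proteins were called in both directions. Of 28 listed, 20 were tested, 2 were higher and 4 were lower, where 6.37% of all genes tested were higher and 8.14% lower. The list's median log2 fold change was -0.12. NGFR, the p75 neurotrophin receptor that partners the TRK receptors, rose from 0.438 and 0.471 CPM to 5.45 and 3.997 CPM (log2 fold change 3.36, SE 0.30, adjusted p = 6.1e-06, edgeR). LINGO1, a partner of p75, was the other higher gene, with a log2 fold change of 1.05 (adjusted p = 8.5e-04, edgeR), and it no longer passed without SGSS05-NS replicate 1 (0.86, adjusted p = 0.0032, edgeR). IGFBP5, which binds insulin-like growth factors, fell from 129 and 166 CPM to 66.9 and 83.5 CPM (adjusted p = 1.3e-04, edgeR), and SORT1, the sortilin receptor for pro-neurotrophins, fell from 113 and 132 CPM to 76.7 and 70.8 CPM (adjusted p = 1.7e-04, edgeR).

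GFRA2 and GFRA3, the RET co-receptors for neurturin and artemin, were followed for their role. GFRA2 fell from 14.0 and 14.0 CPM to 7.03 and 7.44 CPM (log2 fold change -0.95, SE 0.14, adjusted p = 2.2e-04, edgeR). GFRA3 had 23.6 ± 1.92 CPM with DMSO and 14.9 ± 0.750 CPM with SGSS05-NS (SD, n = 2 each), a log2 fold change of -0.66 whose adjusted p of 0.0010 (edgeR) lay at the threshold without passing it. It passed under 8 of the 13 alternative settings, among them DESeq2 (adjusted p = 3.7e-04), the likelihood ratio test (adjusted p = 8.1e-06, edgeR), and the fits without DMSO replicate 1 (-0.75, adjusted p = 6.1e-05, edgeR) and without SGSS05-NS replicate 2 (-0.72, adjusted p = 9.2e-04, edgeR). Both co-receptor genes had less in each treated library than in either control.

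Among 33 adaptor and docking genes, 27 were tested, 1 was higher and 3 were lower, with a median log2 fold change of 0.16. The shares over all genes tested were 6.37% higher and 8.14% lower. DOK6, an adaptor that binds RET, spans 448 kb and fell from 51.5 and 53.7 CPM to 16.9 and 19.5 CPM (log2 fold change -1.53, SE 0.11, adjusted p = 1.1e-06, edgeR). GAB2, a docking protein that recruits PI3K, fell from 133 and 133 CPM to 86.7 and 83.0 CPM (adjusted p = 1.5e-04, edgeR). SHC2, which docks on TRK receptors, was the higher one at 0.82 (adjusted p = 9.2e-04, edgeR), and it no longer passed without DMSO replicate 2 (0.67, adjusted p = 0.0034, edgeR) or without SGSS05-NS replicate 2 (0.75, adjusted p = 0.0023, edgeR).

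Most genes of the cascades below the receptors did not pass the test. The same held over all genes tested, of which 8.14% were lower and 6.37% were higher. Of 37 genes of the RAS-ERK and PI3K-AKT core, 36 were tested, 4 were lower and 0 were higher (also 0 by DESeq2 and limma voom, and 3 at an unadjusted p under 0.05), with a median log2 fold change of -0.031. The 4 lower ones each span more than 300 kb. RPTOR, the mTORC1 subunit raptor (422 kb), fell from 87.3 and 91.1 CPM to 26.1 and 29.8 CPM (log2 fold change -1.67, SE 0.10, adjusted p = 3.2e-07, edgeR). RPS6KA2, a kinase activated by ERK (497 kb), fell from 48.8 and 64.4 CPM to 25.5 and 25.1 CPM (log2 fold change -1.16, SE 0.13, adjusted p = 2.9e-05, edgeR). KSR2 (516 kb), a scaffold of the ERK cascade, was lower at -1.76 (adjusted p = 5.2e-04, edgeR), and it did not pass without SGSS05-NS replicate 1 (-1.57, adjusted p = 0.0014, edgeR).

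Feedback inhibitors and genes of receptor turnover were called in both directions. Of 36 listed, 34 were tested, 8 were higher and 6 were lower, where 6.37% of all genes tested were higher and 8.14% lower. The list's median log2 fold change was -0.034. DUSP5 and DUSP4, phosphatases that act on ERK, rose from 1.55 and 2.14 CPM to 15.5 and 17.0 CPM and from 106 and 86.2 CPM to 300.2 and 226 CPM, with log2 fold changes of 3.14 (SE 0.19, adjusted p = 3e-07, edgeR) and 1.45 (SE 0.14, adjusted p = 9.8e-06, edgeR). PTPRG, a receptor tyrosine phosphatase of 736 kb, fell from 26.0 and 25.9 CPM to 5.50 and 7.78 CPM (log2 fold change -1.96, SE 0.16, adjusted p = 2.5e-06, edgeR). RASA1, a RAS GTPase-activating protein of 124 kb, fell from 69.9 and 68.9 CPM to 39.8 and 37.7 CPM (adjusted p = 3e-05, edgeR).

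Over the 6 lists together, the calls in both directions differed in gene span. The 164 genes tested had a median span of 69.5 kb, against 25.7 kb for all genes tested. The 17 higher ones spanned between 3.91 and 208 kb with a median of 17.6 kb, and the 26 lower ones between 23.4 and 736 kb with a median of 207 kb. Of the 15 list genes of 300 kb and over, 11 were lower, against 53.8% of all genes tested in that class. The 4 that did not pass were EPHA6, SH3KBP1, NRG1 and NRG3.

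Fragments on the strand opposite to each receptor gene were few for most of them. They made up at most 2.92% of the fragments of ALK, RET, NTRK2, NTRK3, IGF1R, ERBB4 and FGFR1 in any library. For ERBB2 they made up between 50.0% and 52.3%, and 2 genes on the opposite strand, PGAP3 and MIEN1, overlap its exons. The opposite strand of ERBB2 had 226 and 178 fragments with DMSO and 166 and 188 with SGSS05-NS. With strand ignored, the log2 fold change of ERBB2 was 0.028 (adjusted p = 0.90, edgeR).

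ERBB3 had 4 and 3 fragments on the opposite strand with DMSO and 60 and 48 with SGSS05-NS. Both treated libraries lay far above both controls, and their scaled counts had a ratio of 16.3 with an exact binomial 95% interval from 7.67 to 41.6. Among the counted genes with a position in the annotation used, none lies opposite to ERBB3. The 2282 of the 57820 genes that had no match there could not be checked. When strand was ignored, ERBB3 entered the test with a log2 fold change of 3.31 (adjusted p = 3.6e-05, edgeR) and was called higher, although with SGSS05-NS its own strand held 19 fragments and the other strand 108.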

How the data were processed

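RNA of SY5Y cells was sequenced as paired reads in 4 libraries, 2 with DMSO and 2 with SGSS05-NS. Trimmomatic 0.30 (trimming) and STAR 2.4.2a (alignment to hg19 and counting on GENCODE 19) were used by the authors, who deposited the unnormalized counts of read pairs for every gene. The kit was strand-specific with ribosomal RNA depleted per the methods, and a TruSeq RNA kit per the labels. The reverse-strand counts were used, since the other strand held 4.64% to 5.05% of fragments on genes. Rows of unmapped, multiply mapped, ambiguous and unannotated fragments were left out. Totals on genes were 21463105 to 25350204, and 55538 identifiers had a symbol in GENCODE 44 on GRCh37.

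The comparison used R 4.3.3 and edgeR 4.0.16 (TMM, filterByExpr, quasi-likelihood test without further terms, Benjamini-Hochberg adjustment over 16468 genes, threshold 0.001). The procedure was tested on simulated data. At the threshold of 0.001 it called 74 of 104 genes simulated with a 2-fold change (71.2%) and 83 of 93 with a 4-fold change (89.2%). Of 15892 genes simulated without change it called 3. A gene that did not pass may therefore still have changed. The standard error is the log2 fold change divided by the square root of F. Replicates of a group were not copies of 1 library (chi-square of their counts over its degrees of freedom 8.76 for DMSO and 11.8 for SGSS05-NS). With 2 libraries each, the spread rests largely on other genes. Same-numbered libraries did not deviate together (r = 0.053 over 16468 genes), so the numbers were taken not to pair them. Counting intervals are exact binomial and cover counting error only.

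Span runs from first to last annotated base. Spans and merged exon lengths are from GENCODE 44, a later release than the GENCODE 19 of the counts. Promoters are 250 bases of RefSeq windows on GRCh38.p14, with the first listed start taken for each receptor gene. The receptor genes and the gene lists were chosen with earlier results of these data known. Named from each list were the 2 higher and 2 lower genes of smallest p past the threshold, and the 3 receptor kinases of most similar profile. PSPN, GFRA2, GFRA3, KSR2, PTN, MDK, IGF2, BDNF, NRG1, NRG3, EPHA6 and SH3KBP1 were named after their values were seen. The result of 1 gene is not reported here. Alternatives were the likelihood ratio test, DESeq2 1.42.0, limma 3.58.1 voom, other scalings, filters and thresholds, counts without strand, the replicate number as a block, and each library left out.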

Additional observations from a re-analysis of the deposited data

Results flagged for a closer look

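The counts on the strand opposite to each receptor gene were not part of the comparison, and for 3 genes they were higher with SGSS05-NS than in the DMSO libraries beyond counting error. For ERBB3 the ratio of the scaled counts was 16.3 (exact binomial 95% interval 7.67 to 41.6), from 4 and 3 to 60 and 48 fragments. The ratio was 4.24 for FGFR1 (1.81 to 11.5), from 6 and 1 to 11 and 17 fragments, where the genes LETM2 and ENSG00000255201 overlap exons on the opposite strand. For RET it was 2.33 (1.23 to 4.62), from 6 and 9 to 13 and 20 fragments. These intervals cover counting error only and are no test over replicates.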

How the results depend on the processing

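ALK, IGF1R and ERBB4 stayed lower at an adjusted p under 0.001 in edgeR, DESeq2 or limma voom under each of the 13 alternatives run for them. Without single libraries, ALK ranged from -2.12 to -1.68, IGF1R from -1.13 to -0.92 and ERBB4 from -2.58 to -2.10 on the log2 scale, and under the 9 other settings from -1.91 to -1.85, from -1.05 to -0.98 and from -2.39 to -2.29. RET ranged from -0.80 to -0.29, NTRK3 from -2.13 to -0.58, FGFR1 from 0.25 to 0.29, ERBB2 from -0.12 to 0.063 and NTRK2 from -0.62 to 0.12 without single libraries, so the last pair changed sign without passing the test. The number of receptor genes called lower went from 3 to 5, with RET and NTRK3 added, when genes with low counts were kept, with the replicate number as a block, and at an adjusted p under 0.05. That block gave adjusted p-values of 2.4e-04 for RET and 3.0e-04 for NTRK3 (edgeR). The number called higher went from 0 to 1 with strand ignored (ERBB3) and at an adjusted p under 0.05 (FGFR1).

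Over all genes, 1049 were higher and 1341 lower. The likelihood ratio test gave 2022 and 2267, no filter on low counts 2034 and 2570, and an adjusted p under 0.05 3728 and 3903, while the replicate block gave 1759 higher. Over the 6 lists, 17 were higher and 26 lower, which became 34 and 55 at an adjusted p under 0.05, and 45 lower with no filter. The Spearman rho of span and change was -0.22, and it was -0.097 with no filter, -0.281 with at least 10 counts in every library and -0.0885 for merged exon length. For the 33 named genes outside the receptor set, 401 of 429 values stayed on their side of the threshold, 10 lost the call (SHC2, LINGO1 and KSR2), 18 gained it and 0 changed direction past it. Without 1 library, its group has a lone sample that is assumed to vary like the others. The causes of these changes were not tested.

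Depth limits NTRK2 and ERBB3, with at most 22 fragments per library on their own strand. Multiply mapped pairs are not counted.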
